A study of Homo sapiens with 12 samples.

Results

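Collagen and laminin chain genes were described on arrays of 2 human lung adenocarcinoma cell lines that had survived the drug osimertinib. The genes were taken by symbol: a probe set was a member if its annotated symbol was COL, a number, A and a number, or LAM, one of the letters A, B or C, and a digit. This gave 49 chains, 41 of collagen and 8 of laminin, each with 1 probe set, among 17687 gene symbols on 21448 probe sets. They were sorted by textbook class into 10 fibrillar chains, 16 basement membrane chains (8 collagens and the 8 laminins) and 23 other chains. Other chains of both families were not analysed here.

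The arrays form 4 groups of 3. PC-9 and H1975 are established epithelial lines whose growth is driven by a mutated epidermal growth factor receptor, the target of osimertinib. All 4 groups went through 0.5 µM osimertinib with the medium changed every 3 days, and the cells still alive on day 8, after 1 week, were taken as tolerant. The groups are PC-9 tolerant cells given 100 µM SK-216 (a code name) and still alive 48 h later; PC-9 tolerant cells; H1975 tolerant cells given SK-216 in the same way; and H1975 tolerant cells. For the SK-216 samples 1 label field names naive cells as the start, whereas title, description and treatment text name tolerant cells, and nothing states whether osimertinib stayed in the medium. No tolerant cells collected 48 h later without SK-216 are described, so the compound and the added time cannot be told apart. In each line the SK-216 arrays hold survivors only, and the 12 arrays include no cells without osimertinib. A difference between PC-9 and H1975 is one between 2 lines.

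Collagens are trimers of chains wound into a triple helix. Fibrillar collagens assemble outside the cell into the fibres that bear load, chiefly in tissue that fibroblasts build. Collagen IV and the laminins, which are cross-shaped trimers of an alpha, a beta and a gamma chain, form the networks of the basement membrane on which lung epithelium rests. The other collagens decorate fibres, form beaded filaments or short networks, or span the cell membrane. Many trimers need chains of several genes, so the chains of a trimer are given together.

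Promoter stretches of 6 chains are shown, and their part in the results was not tested. LAMB1 and COL12A1 were chosen because they differed most between the lines in each direction. Collagen IV genes lie in head-to-head pairs that share the stretch between their starts. Sequences are from RefSeq on GRCh38.p14, run 5′ to 3′ on the strand named, and end at the base before the gene's start, except that the last is the whole stretch between the COL4A1 and COL4A2 starts. Capitals mark matches, on either strand, to CCAAT or GGGCGG (the GC box). TATAAA and TGANTCA (the AP-1 motif) were also searched. LAMB1 lies on the minus strand at chr7:108003162-108003311, COL12A1 on the minus strand at chr6:75206054-75206203, COL4A5 on the plus strand at chrX:108439688-108439837, COL4A6 on the minus strand at chrX:108439459-108439608, and the shared stretch is printed on the plus strand from chr13:110307158-110307283.
LAMB1: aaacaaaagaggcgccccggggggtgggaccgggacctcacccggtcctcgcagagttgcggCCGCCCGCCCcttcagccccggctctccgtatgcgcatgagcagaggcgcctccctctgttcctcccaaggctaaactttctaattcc
COL12A1: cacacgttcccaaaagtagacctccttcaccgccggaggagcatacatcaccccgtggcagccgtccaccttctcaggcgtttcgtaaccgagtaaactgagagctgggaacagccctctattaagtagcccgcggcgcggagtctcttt
COL4A5: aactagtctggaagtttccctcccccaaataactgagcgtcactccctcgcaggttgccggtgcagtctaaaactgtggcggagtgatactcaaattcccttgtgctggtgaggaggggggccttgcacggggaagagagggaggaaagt
COL4A6: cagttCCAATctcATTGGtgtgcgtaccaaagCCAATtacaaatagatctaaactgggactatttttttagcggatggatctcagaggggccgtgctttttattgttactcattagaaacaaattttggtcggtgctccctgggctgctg
COL4A1-COL4A2: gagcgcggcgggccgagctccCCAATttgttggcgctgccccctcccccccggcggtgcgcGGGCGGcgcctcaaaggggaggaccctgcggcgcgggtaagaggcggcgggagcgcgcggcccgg
The LAMB1 stretch held 2 overlapping GC boxes, the COL4A6 stretch 3 CCAAT matches, and the COL4A1-COL4A2 stretch 1 of each. The COL12A1 and COL4A5 stretches held none of the 4 motifs. Over 34943 promoter windows of 150 bases, 23.5% held CCAAT, 36.7% GGGCGG, 6.72% TATAAA and 4.18% TGANTCA, so CCAAT and GGGCGG are common in such windows. The annotated starts of COL4A5 and COL4A6 lie 380 bases apart, for the COL4A6 start nearest to COL4A5, and those of COL4A1 and COL4A2 lie 127 bases apart.

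Values are log2 signals per probe set. Signals of different probe sets depend on their probes, so differences are taken between arrays within a gene. The exceptions are the olfactory receptor level below, a rough guide only, and summed marker signals, which weigh the brightest probe sets most. As a measure of the level that unexpressed genes give, the 349 olfactory receptor probe sets centred on a median of 3.61, and their 95th percentile was 5.05. Group means of 24 of the 49 chains lay at or under 5.05 in all 4 groups: 5 of 10 fibrillar, 6 of 16 basement membrane and 13 of 23 other chains. COL4A4, COL4A6 and LAMB1 lay there in 2 groups, and 22 chains lay above it in every group. Within groups, the correlation of arrays over all probe sets was 0.9934 to 0.9953, for arrays of the same line with and without SK-216 it was 0.9919 to 0.9943, and for arrays of different lines 0.9274 to 0.9323.

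The labelled cell type was set against marker genes. KRT8, KRT18 and KRT7, keratins of simple epithelium, had group means between 14.04 and 16.72 in all 4 groups. Of all 10 epithelial markers, 3 lay within the olfactory receptor range in PC-9 SK-216, 2 in PC-9 tolerant, 3 in H1975 SK-216 and 2 in H1975 tolerant cells. These were the lung markers: NAPSA, an alveolar protease, lay there in all 4 groups, and NKX2-1, the lung lineage factor, and SFTPB, a surfactant protein, in 3 groups each. The arrays thus show epithelial keratins but little or no signal of these lung markers. Of 8 fibroblast markers, 7 lay within the olfactory receptor range in every group, with PDGFRB the one above it. The log2 summed signal of the 8 was 7.17 to 7.36 in PC-9 SK-216 arrays and 7.14 to 7.41 in PC-9 tolerant arrays. It was 7.34 to 7.56 in H1975 SK-216 arrays and 7.28 to 7.56 in H1975 tolerant arrays. With 7 of the 8 within the olfactory receptor range, these sums tell little about differences between groups.

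**Figure D1:**
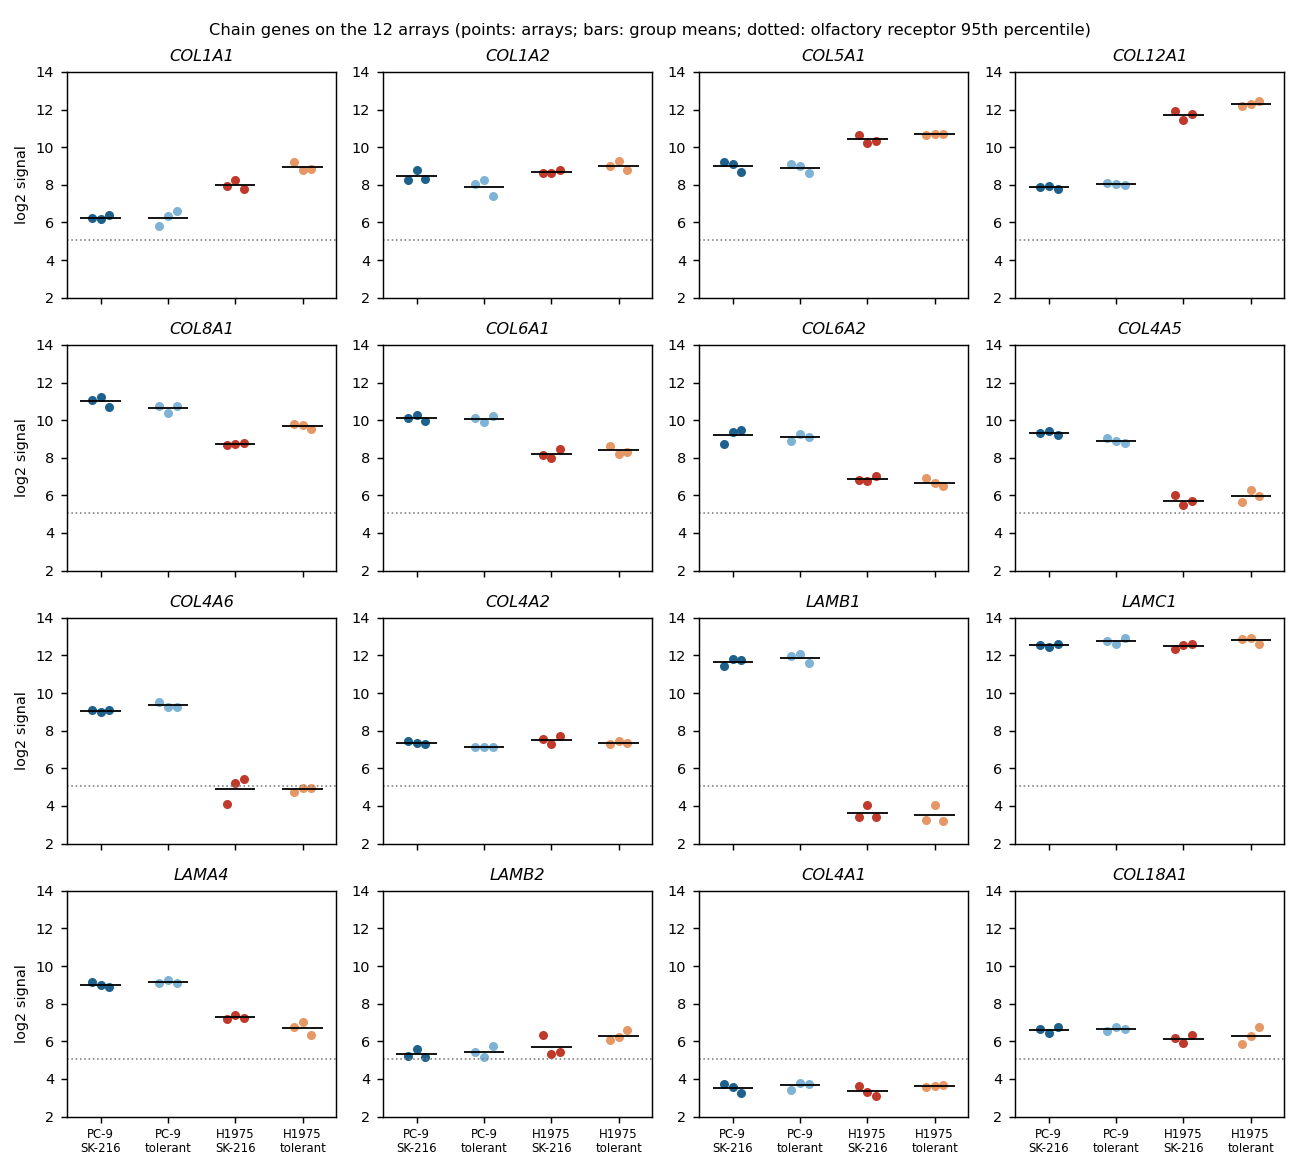
Log2 signal (y axis) of 16 chain genes on the 12 arrays, by group (x axis); points are arrays, bars group means of 3 arrays, and the dotted line is the olfactory receptor 95th percentile of 5.05. LAMB1 and COL4A6 lie near or under that line in H1975 and well above it in PC-9, COL12A1 is higher in H1975, and LAMC1 is near the same level in all groups.

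With SK-216, 3 collagen chains fell in H1975 tolerant cells, and no chain passed the test in PC-9 tolerant cells. The 3 are COL8A1, a short-chain collagen that forms hexagonal networks, COL1A1, a chain of collagen I, the main fibrillar collagen, and COL12A1, which binds along collagen I fibres. They fell by 0.97, 0.96 and 0.60 on the log2 scale. None is in the basement membrane class used here, and no laminin passed the test in either line. Over all probe sets 3.80% passed in H1975 and 0.443% in PC-9, so 0 calls among 16 basement membrane chains tell little. Of the 8 laminins, 3 (37.5%) had an unadjusted limma p under 0.05 in H1975, against 14.2% of all probe sets. In PC-9 0 had, against 10.9%. In bulk RNA, fewer cells that make a chain and less RNA per cell cannot be told apart.

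In H1975, 3 of 49 chains (6.12%) passed an adjusted p of 0.05, 0 higher and 3 lower. Over all 21448 probe sets 3.80% passed, 1.44% higher and 2.35% lower. By class it was 1 of 10 fibrillar, 0 of 16 basement membrane and 2 of 23 other chains. The median change was 0.01 over the chains and 0.01 over all probe sets. Without adjustment, 8 chains (16.3%) had p under 0.05, against 14.2% of all probe sets. In 10 of 49 chains (20.4%) the arrays with and without SK-216 did not overlap, 4 higher and 6 lower, against 18.5% of all probe sets.

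In PC-9, 0 of 49 chains passed in limma's test, while 5 (10.2%) had an unadjusted p under 0.05, against 10.9% of all probe sets. Over all probe sets 0.443% passed, 0.373% higher and 0.0699% lower. Changes of the chains ran from -0.65 for COL4A4, a collagen IV chain, to 0.55 for COL1A2, with medians of 0.01 over the chains and -0.00 over all probe sets. The 95% intervals of all 49 changes lay between -1.09 and 1.07. Arrays did not overlap in 11 of 49 chains (22.4%), 4 higher and 7 lower, against 15.0% of all probe sets.

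COL8A1 read 8.69, 8.71 and 8.77 with SK-216 in H1975, against 9.78, 9.75 and 9.54 in H1975 tolerant cells. All 3 SK-216 arrays lay below all 3 tolerant arrays, and the change was -0.97 ± 0.15 (standard error of the fit, n = 3 arrays per group, limma adjusted p = 0.000155). In PC-9 it read 11.09, 11.23 and 10.72 with SK-216 and 10.77, 10.40 and 10.75 in tolerant cells, which overlap, with a change of 0.37 ± 0.15 (adjusted p = 0.332). The change in PC-9 minus the change in H1975 was 1.34 ± 0.21 (adjusted p = 0.000667). COL8A1 was the 1 chain of 49 for which that difference passed, against 1.42% of all probe sets, 1.09% more positive and 0.331% more negative in PC-9. An unadjusted p under 0.05 was found for 8 chains (16.3%), against 12.7% of all probe sets.

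COL1A1 read 7.96, 8.23 and 7.76 with SK-216 in H1975, against 9.20, 8.79 and 8.85 in tolerant cells, again with no overlap. The change was -0.96 ± 0.21 (adjusted p = 0.00693). Its adjusted p was 0.064 without the first tolerant array and 0.051 without the third SK-216 array, and the call was lost in both cases. In PC-9 COL1A1 read 6.23, 6.16 and 6.39 with SK-216 and 5.82, 6.33 and 6.61 in tolerant cells, and the SK-216 arrays lay within the span of the tolerant ones. That change was 0.01 ± 0.21, with a 95% interval of -0.43 to 0.44, and the difference between the lines, 0.97 ± 0.30, missed the threshold (adjusted p = 0.11).

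COL1A2 encodes the partner of COL1A1 in the collagen I trimer. It read 8.64, 8.65 and 8.79 with SK-216 in H1975, against 9.02, 9.26 and 8.78 in tolerant cells. One tolerant array fell among the SK-216 arrays, and the change of -0.33 ± 0.20 did not pass (adjusted p = 0.508). In PC-9 it read 8.26, 8.79 and 8.30 with SK-216 and 8.03, 8.25 and 7.42 in tolerant cells, with 0.55 ± 0.20 (adjusted p = 0.284). Those PC-9 arrays did not overlap, though the nearest values were 8.26 and 8.25. The difference between the lines was 0.88 ± 0.28 (adjusted p = 0.135). COL5A1, whose collagen V starts the assembly of collagen I fibres, had changes of 0.11 ± 0.16 in PC-9 and -0.27 ± 0.16 in H1975, neither past the threshold (adjusted p = 0.863 and 0.495).

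COL12A1 read 11.91, 11.47 and 11.75 with SK-216 in H1975, against 12.17, 12.32 and 12.43 in tolerant cells. The groups did not overlap, and the change was -0.60 ± 0.13 (adjusted p = 0.0097). Its adjusted p was 0.0684 without the third tolerant array and 0.0758 without the second SK-216 array. In PC-9 the change was -0.16 ± 0.13 (adjusted p = 0.722), and the difference between the lines was 0.44 ± 0.19 (adjusted p = 0.332).

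Among basement membrane chains LAMC1, the gamma chain of most laminins, had no call in either line although its arrays were apart in both. It read 12.56, 12.44 and 12.61 with SK-216 and 12.75, 12.62 and 12.91 in PC-9 tolerant cells. In H1975 it read 12.33, 12.58 and 12.61 with SK-216 and 12.88, 12.95 and 12.63 in tolerant cells. All SK-216 arrays of a line lay below its tolerant arrays, at -0.22 ± 0.11 in PC-9 (adjusted p = 0.462) and -0.31 ± 0.11 in H1975 (adjusted p = 0.133). LAMA4, an alpha chain known from vessel and muscle basement membranes, read 7.19, 7.39 and 7.22 with SK-216 in H1975 and 6.76, 7.03 and 6.33 in tolerant cells. These did not overlap, but 0.56 ± 0.18 did not pass (adjusted p = 0.0945). COL4A2, a chain of the collagen IV present in nearly all basement membranes, had 0.23 ± 0.18 in PC-9 and 0.15 ± 0.18 in H1975, and neither passed.

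**Figure D2:**
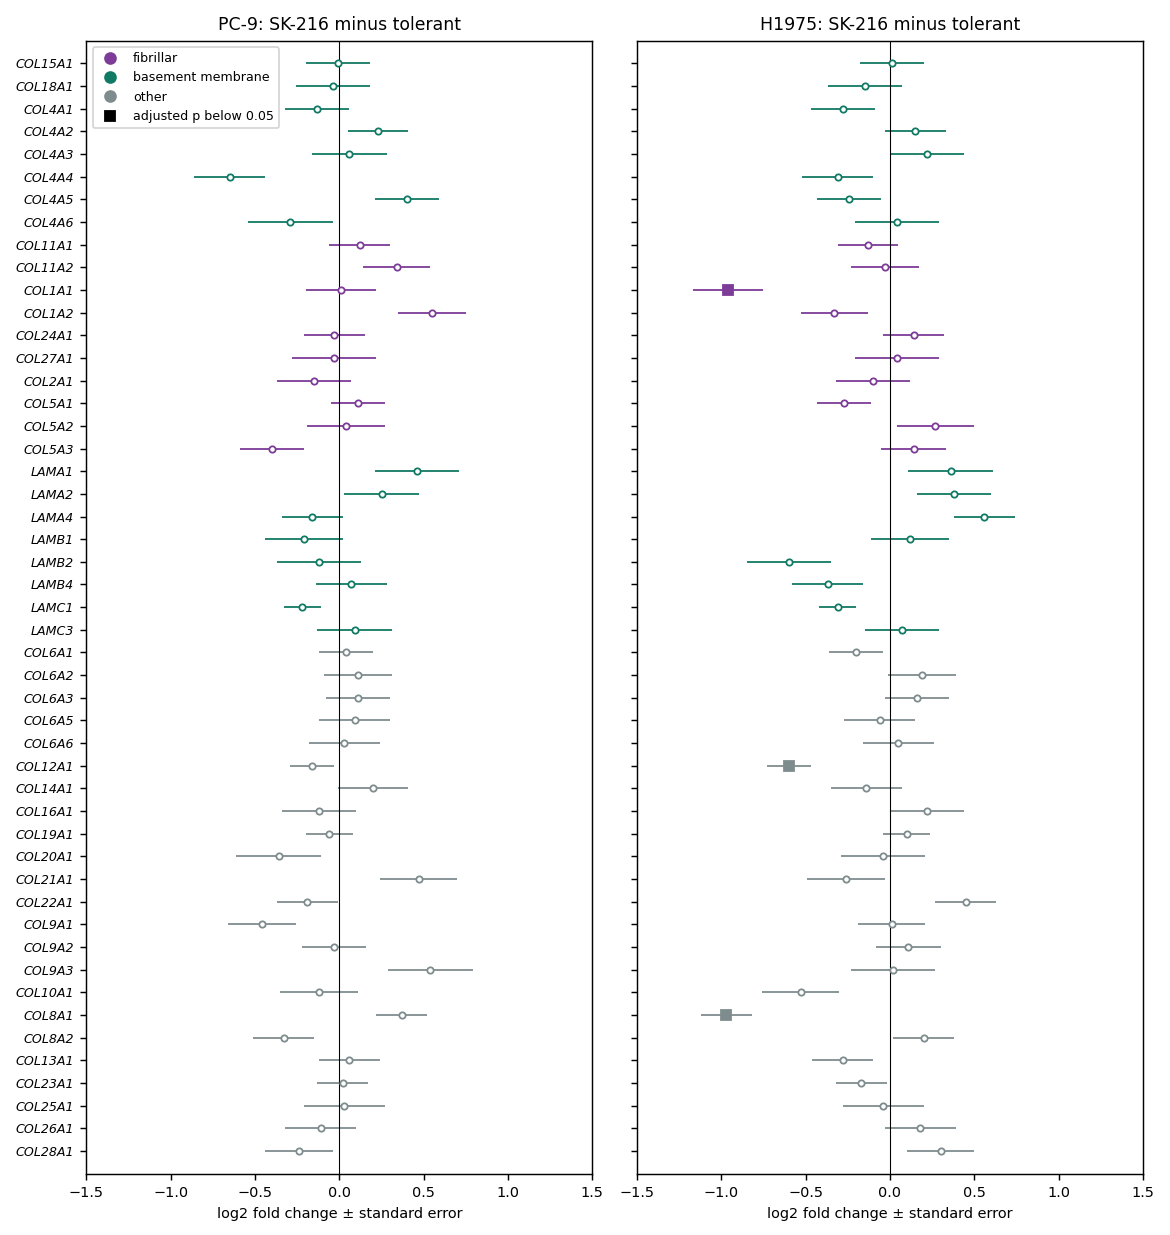
Change with SK-216 of the 49 chain genes in PC-9 and H1975 (x axis, log2 fold change with its standard error; squares have an adjusted p below 0.05; colours give the chain class). COL1A1, COL12A1 and COL8A1 lie below 0 as squares in H1975, and no chain is a square in PC-9.

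With the fall of these 3 chains in H1975 moved epithelial markers: CDH1, the epithelial cadherin, changed by -1.55 ± 0.13, EPCAM by 0.77 ± 0.13, KRT7 by 0.33 ± 0.08 and KRT8 by -0.24 ± 0.06. The log2 summed signal of the 10 epithelial markers was 16.83 to 16.86 with SK-216 in H1975 and 16.90 to 16.98 in tolerant cells. No fibroblast, endothelial, leukocyte or smooth muscle marker passed the test for SK-216 in either line. Of the fibroblast markers, DCN, LUM and PDGFRA were within the olfactory receptor range in all 4 groups. The part of these marker shifts in the collagen results was not tested.

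Between the lines, chain genes differed in both directions. PC-9 had more RNA for the basement membrane chains LAMB1, LAMA4, COL4A5 and COL4A6. It also had more for the collagen VI and VIII chains COL6A1, COL6A2 and COL8A1. H1975 had more for the fibrillar chains COL1A1 and COL5A1 and for COL12A1. These 10 chains passed the test both in tolerant cells and after SK-216. The group means of these comparisons share no array, but both tests use the variance fitted over all 12 arrays. Each comparison also shares arrays with the SK-216 comparisons above. Differences are PC-9 minus H1975 on the log2 scale, so that negative ones are lower in PC-9.

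In tolerant cells, 8 of 49 chains were higher and 6 lower in PC-9 than in H1975, 28.6% in all, against 44.0% of all probe sets (21.3% higher and 22.7% lower). After SK-216 it was 8 higher and 4 lower, 24.5%, against 43.9% (21.6% higher and 22.2% lower). Of the chains, 24 lay within the olfactory receptor range in every group; whether their share of calls differs from that of all probe sets was not tested. In both comparisons 7 chains were higher (17.8% of all probe sets were) and 3 lower (18.7% of all probe sets were), and none was called in opposite directions. The median over the chains was 0.01 in tolerant cells (0.02 over all probe sets) and -0.03 after SK-216 (-0.04 over all probe sets). Arrays of the lines did not overlap in 17 of 49 chains in tolerant cells and 19 after SK-216, against 50.2% and 50.6% of all probe sets.

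By class, fibrillar chains gave 0 higher and 3 lower in PC-9 tolerant cells and 0 and 2 after SK-216. Basement membrane chains gave 4 higher and 1 lower in tolerant cells and 4 and 0 after SK-216. The other chains gave 4 higher and 2 lower in each comparison. In every class the share called in either direction lay under that of all probe sets, 44.0% in tolerant cells and 43.9% after SK-216. By direction, 21.3% of all probe sets were higher and 22.7% lower in tolerant cells, and 21.6% and 22.2% after SK-216. The class figures are counts of members. Neither the difference between the classes nor that from all probe sets was tested.

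LAMB1, the beta chain of the laminins found in most embryonic and many adult basement membranes, stood furthest apart. It read 11.44, 11.79 and 11.76 in PC-9 with SK-216 and 3.41, 4.06 and 3.42 in H1975 with SK-216. In tolerant cells it read 11.98, 12.07 and 11.58 in PC-9 and 3.28, 4.06 and 3.20 in H1975. Every H1975 array lay in the range of the olfactory receptors and every PC-9 array far above it. With each H1975 array taken at no less than 5.05, LAMB1 was at least 114-fold higher in PC-9 in tolerant cells (fitted log2 difference 8.36 ± 0.23, adjusted p = 1.75e-19) and at least 98-fold higher after SK-216 (8.03 ± 0.23, adjusted p = 3.99e-19).

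LAMB4, the neighbour of LAMB1 on chromosome 7 with no protein-coding gene between, lay within the olfactory receptor range in all 4 groups, with means of 4.19 in PC-9 SK-216, 4.12 in PC-9 tolerant, 4.07 in H1975 SK-216 and 4.44 in H1975 tolerant cells. LAMC1, the gamma chain that joins LAMB1 in a trimer, differed by -0.06 ± 0.11 in tolerant cells and 0.03 ± 0.11 after SK-216, and all 12 of its arrays lay between 12.33 and 12.95. LAMB2, the beta chain of muscle, nerve and kidney basement membranes, read 5.42, 5.17 and 5.75 in PC-9 tolerant cells and 6.08, 6.21 and 6.62 in H1975 tolerant cells. It differed by -0.86 ± 0.25 (adjusted p = 0.00745), a call lost without the third H1975 array (adjusted p = 0.053), and -0.38 ± 0.25 after SK-216 did not pass (adjusted p = 0.261).

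LAMA4 read 9.14, 8.98 and 8.89 in PC-9 with SK-216 against 7.19, 7.39 and 7.22 in H1975 with SK-216, and 9.09, 9.28 and 9.11 against 6.76, 7.03 and 6.33 in tolerant cells. The lines were apart in both conditions, by 2.45 ± 0.18 in tolerant cells (adjusted p = 2.86e-11) and 1.74 ± 0.18 after SK-216 (adjusted p = 1.34e-08). The remaining laminin chains, LAMA1, LAMA2 and LAMC3, had group means from 3.81 to 4.90, within the olfactory receptor range in all 4 groups, and none passed a test.

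COL4A5 and COL4A6, the head-to-head pair on the X chromosome whose chains combine in a collagen IV trimer, were both higher in PC-9. COL4A5 read 9.04, 8.88 and 8.81 in PC-9 tolerant cells and 5.65, 6.26 and 5.99 in H1975 tolerant cells, a difference of 2.94 ± 0.19 or 7.69-fold (adjusted p = 3.6e-12). After SK-216 it read 9.30, 9.40 and 9.22 in PC-9 and 6.0, 5.47 and 5.71 in H1975, a difference of 3.58 ± 0.19 (adjusted p = 9.13e-14). No PC-9 array came near an H1975 array in either condition.

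COL4A6 read 9.53, 9.27 and 9.24 in PC-9 tolerant cells and 4.73, 4.94 and 4.97 in H1975 tolerant cells, all 3 of the last at the olfactory receptor level. It was at least 19.7-fold higher in PC-9 (fitted 4.47 ± 0.25, adjusted p = 2.12e-13). After SK-216 it read 9.08, 8.97 and 9.12 in PC-9 and 4.08, 5.24 and 5.45 in H1975, with 2 of the H1975 arrays just above that level, and was at least 14-fold higher (fitted 4.13 ± 0.25, adjusted p = 9.24e-13).

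The pair on chromosome 13 behaved otherwise. COL4A2 read 7.11 to 7.13 in PC-9 tolerant cells and 7.31 to 7.44 in H1975 tolerant cells, and the difference of -0.25 ± 0.18 did not pass, nor did -0.17 ± 0.18 after SK-216. COL4A1 lay within the olfactory receptor range on all 12 arrays, from 3.11 to 3.80. The COL4A1 protein is the obligate partner of COL4A2 in the common collagen IV trimer, and a probe set at that level does not show that the RNA is absent. On chromosome 2, COL4A3 was within the range in all 4 groups, and COL4A4 had means of 4.93 in PC-9 SK-216, 5.58 in PC-9 tolerant, 4.82 in H1975 SK-216 and 5.13 in H1975 tolerant cells, with no call. COL18A1 and COL15A1, basement membrane collagens that carry anti-angiogenic end fragments, were above the range in every group, and no difference passed; COL18A1 had 0.36 ± 0.22 in tolerant cells and 0.47 ± 0.22 after SK-216.

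COL6A1 and COL6A2, neighbours on chromosome 21 that encode 2 chains of the beaded filament collagen VI, were both higher in PC-9. COL6A1 read 10.12, 9.89 and 10.24 in PC-9 tolerant cells against 8.64, 8.21 and 8.32 in H1975 tolerant cells, and COL6A2 read 8.89, 9.28 and 9.10 against 6.90, 6.67 and 6.48. The lines did not overlap for either gene. The differences in tolerant cells were 1.69 ± 0.16 for COL6A1 (adjusted p = 3.29e-09) and 2.41 ± 0.20 for COL6A2 (adjusted p = 1.88e-10). After SK-216 they were 1.93 ± 0.16 and 2.32 ± 0.20. COL6A3, the chain that usually completes that trimer, and COL6A5 and COL6A6, its alternatives, lay within the olfactory receptor range in all 4 groups, COL6A3 with means of 2.92 in PC-9 SK-216, 2.81 in PC-9 tolerant, 3.26 in H1975 SK-216 and 3.10 in H1975 tolerant cells.

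COL8A1 was higher in PC-9 by 0.95 ± 0.15 in tolerant cells (adjusted p = 5.91e-06) and by 2.29 ± 0.15 after SK-216 (adjusted p = 2.03e-12). COL8A2, its partner chain, was within the olfactory receptor range in every group. Of the membrane-spanning collagens, COL23A1 had means from 9.07 to 9.29 with no call between any groups.

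COL12A1 stood furthest apart in the other direction. It read 8.09, 8.02 and 8.01 in PC-9 tolerant cells and 12.17, 12.32 and 12.43 in H1975 tolerant cells, a difference of -4.27 ± 0.13 or 19.2-fold (adjusted p = 2.64e-18). After SK-216 it read 7.90, 7.95 and 7.79 in PC-9 and 11.91, 11.47 and 11.75 in H1975, a difference of -3.83 ± 0.13 or 14.2-fold (adjusted p = 2.13e-17). All PC-9 arrays were below all H1975 arrays.

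COL1A1 and COL5A1 were lower in PC-9 in both comparisons, and COL1A2 in tolerant cells. COL1A1 differed by -2.69 ± 0.21 in tolerant cells, 6.47-fold (adjusted p = 7.47e-11), and by -1.72 ± 0.21 after SK-216, 3.3-fold (adjusted p = 1.66e-07). COL5A1 read 9.08, 8.99 and 8.61 in PC-9 tolerant cells against 10.65, 10.70 and 10.68 in H1975 tolerant cells, and 9.22, 9.08 and 8.70 against 10.66, 10.22 and 10.35 after SK-216. These did not overlap, at -1.78 ± 0.16 (adjusted p = 9.78e-10) and -1.41 ± 0.16 (adjusted p = 5.5e-08). COL1A2 differed by -1.12 ± 0.20 in tolerant cells (adjusted p = 4.35e-05), while after SK-216 the difference of -0.24 ± 0.20 did not pass (adjusted p = 0.367) and 1 PC-9 array lay among those of H1975. That the COL1A2 difference itself changed with SK-216 did not pass either, as given above.

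The other fibrillar chains gave no call. COL2A1 and COL27A1 had group means from 6.54 to 7.10. COL5A2, COL5A3, COL11A1, COL11A2 and COL24A1 lay within the olfactory receptor range in all 4 groups. COL5A2 is the usual partner of COL5A1 in collagen V, so of the 3 collagen V chains COL5A1 alone had a call.

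The remaining calls between the lines were small or sat at the olfactory receptor level. COL13A1 (means 3.17 in PC-9 and 3.80 in H1975 tolerant cells, adjusted p = 0.00601), COL9A1 (4.88 and 4.35, adjusted p = 0.0392) and COL21A1 (4.47 in PC-9 and 3.62 in H1975 with SK-216, adjusted p = 0.00381) had both group means within that range, so no fold is given. COL28A1 read 6.30, 6.17 and 6.17 in PC-9 with SK-216 and 6.82, 6.71 and 6.75 in H1975 with SK-216, a difference of -0.55 ± 0.20 (adjusted p = 0.0297) that was lost without any of 4 single arrays (adjusted p up to 0.0762). The COL9A1 call was lost without any of 5 single arrays, after quantile normalization and after centring.

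**Figure D3:**
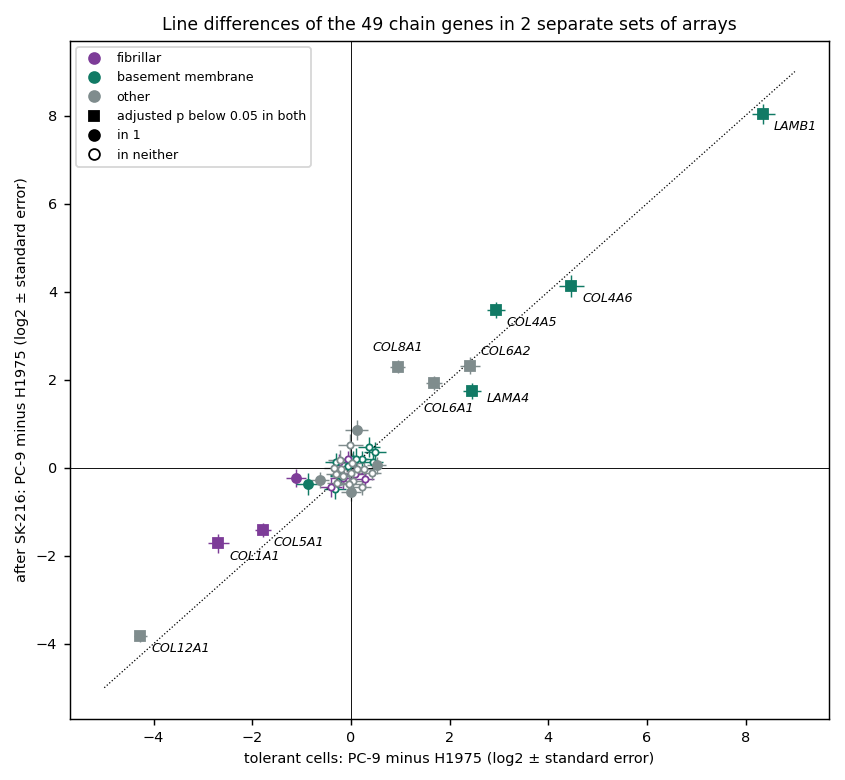
Difference between PC-9 and H1975 for the 49 chain genes, in tolerant cells (x axis) and after SK-216 (y axis), as log2 with standard errors; colours give the class, squares passed in both comparisons, filled circles in 1, and the dotted line marks equal differences. LAMB1, COL4A6 and COL4A5 lie far out on the PC-9 side, COL12A1, COL1A1 and COL5A1 on the H1975 side, and COL8A1 lies off the line.

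Epithelial markers differed along with these chains. EPCAM was higher in PC-9 tolerant cells by 7.11 ± 0.13 and CDH1 by 4.37 ± 0.13, and 6 of 10 epithelial markers were called higher and 2 lower. The 2 lower were MUC1 (-1.22 ± 0.18) and NKX2-1 (-0.93 ± 0.24, with its PC-9 mean within the olfactory receptor range). For all marker counts here, 21.3% of all probe sets were called higher and 22.7% lower in tolerant cells. After SK-216 these shares were 21.6% and 22.2%. The log2 summed signal of the 10 was 18.32 to 18.39 in PC-9 SK-216, 18.19 to 18.33 in PC-9 tolerant, 16.83 to 16.86 in H1975 SK-216 and 16.90 to 16.98 in H1975 tolerant cells. Of 7 endothelial markers, 4 were within the olfactory receptor range in both PC-9 groups and 6 in both H1975 groups. CDH5 was higher in PC-9 (mean 7.47 against 4.84 in H1975 tolerant cells, adjusted p = 9.61e-11), whereas PECAM1, KDR and TEK, other defining endothelial genes, were within that range in all 4 groups. The log2 summed endothelial signal was 7.95 to 8.20 in PC-9 SK-216, 8.21 to 8.43 in PC-9 tolerant, 7.20 to 7.32 in H1975 SK-216 and 7.17 to 7.24 in H1975 tolerant cells. Of 7 leukocyte markers, 3 were called higher and 2 lower in PC-9 tolerant cells, and 2 higher and 1 lower after SK-216. CD3E, CD14, CSF1R and CD68 lay above the olfactory receptor range in every group, CD68 with means of 11.60 to 12.26, and PTPRC, the pan-leukocyte marker, and LYZ lay within it in all 4. The log2 summed leukocyte signal was 11.93 to 12.05 in PC-9 SK-216, 11.73 to 11.77 in PC-9 tolerant, 12.28 to 12.40 in H1975 SK-216 and 12.21 to 12.43 in H1975 tolerant cells. CD68 alone gave most of that sum. The log2 summed smooth muscle signal was 12.12 to 12.38 in PC-9 SK-216, 12.32 to 12.62 in PC-9 tolerant, 12.61 to 12.90 in H1975 SK-216 and 12.68 to 12.83 in H1975 tolerant cells. CNN1 and SMTN gave most of it, and 1 of the 5 markers lay within the olfactory receptor range in each group. Of these 5, 0 were called higher and 1 lower in PC-9 tolerant cells, SMTN by -0.89 ± 0.15. After SK-216 0 were higher and 2 lower, SMTN by -1.04 ± 0.15 and CNN1 by -0.30 ± 0.11. Of 8 fibroblast markers, 0 were called higher and 1 lower in each comparison. These were PDGFRB in tolerant cells (-0.70 ± 0.24, adjusted p = 0.0201) and PDPN, within the olfactory receptor range, after SK-216. The part of these markers in the line differences was not tested.

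Genes that make, export, crosslink, bind and cut collagens and laminins were taken as 6 lists, of which 77 genes on 78 probe sets were measured. For SK-216, 2 probe sets rose in PC-9 and 0 fell (2.56%, against 0.443% of all probe sets), and 0 rose and 3 fell in H1975 (3.85%, against 3.80%). Those in H1975 were SERPINH1, the collagen chaperone HSP47, ITGB1, the beta chain of the collagen-binding integrins, and BMP1, the protease that trims the end of fibrillar procollagens. Those in PC-9 were ITGA2, the alpha chain of a collagen receptor, and P4HA1, a catalytic subunit of prolyl hydroxylase.

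SERPINH1 read 14.79, 14.95 and 14.80 with SK-216 in H1975, against 15.34, 15.27 and 15.29 in tolerant cells. The groups were apart, and it fell by 0.45 (SE 0.08, adjusted p = 0.00111). ITGB1 read 16.40, 16.38 and 16.49 with SK-216 against 16.77, 16.85 and 16.74 in tolerant cells, also apart, and fell by 0.36 (SE 0.07, adjusted p = 0.00289). BMP1 read 9.91, 10.65 and 10.59 with SK-216 against 11.31, 10.97 and 11.09 in tolerant cells. It fell by 0.74 (SE 0.17, adjusted p = 0.0128), with the first SK-216 array the lowest. Without a variance trend in the fit the 3 adjusted p-values were 0.0744, 0.185 and 0.0885, and BMP1 also lost its call without the first tolerant array (0.0907) or the first SK-216 array (0.122). In PC-9 the changes were -0.05 ± 0.08, -0.01 ± 0.07 and -0.36 ± 0.17, and none of the 3 differences between the lines passed.

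ITGA2 read 10.08, 10.43 and 10.38 with SK-216 in PC-9, against 9.91, 9.51 and 9.46 in tolerant cells, and P4HA1 read 11.32, 11.35 and 11.20 against 10.60, 10.94 and 10.91. Neither pair of groups overlapped. The changes were 0.67 ± 0.15 (adjusted p = 0.0441) and 0.47 ± 0.11 (adjusted p = 0.0453), both at the edge of the threshold. Leaving out 1 array ended the ITGA2 call in 7 of 12 cases (adjusted p up to 0.254) and the P4HA1 call in 9 of 12 (up to 0.225). Without a variance trend neither passed (adjusted p = 0.204 for ITGA2 and 0.239 for P4HA1). In H1975 ITGA2 had 0.39 ± 0.15 and P4HA1 0.28 ± 0.11, without a call (adjusted p = 0.187 and 0.184).

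Between the lines, collagen-making genes were mostly lower in PC-9. Over the 6 lists 55.1% of probe sets passed in tolerant cells and 60.3% after SK-216, against 44.0% and 43.9% of all probe sets. Of 14 hydroxylation and glycosylation genes, 11 were called lower (78.6%, against 22.7% of all probe sets) and 0 higher in PC-9 tolerant cells, with a median of -1.02. After SK-216 10 were lower (71.4%, against 22.2%) and 1 higher, with a median of -0.88; the 1 is P4HB, whose call was lost under 3 of 20 alternatives. P4HA1 differed by -2.24 ± 0.11 in tolerant cells (adjusted p = 7.55e-15), and CRTAP, which helps hydroxylate collagen proline, by -1.87 ± 0.09 (adjusted p = 4.63e-15). Of 11 folding and export probe sets, 7 were lower (63.6%) and 1 higher in tolerant cells, with a median of -0.76, and 8 lower (72.7%) and 1 higher after SK-216, with a median of -0.77. SERPINH1 differed by -1.64 ± 0.08 and SEC23A, a coat protein of the vesicles that leave the endoplasmic reticulum, by -2.47 ± 0.12 in tolerant cells, while FKBP10, a collagen-folding isomerase, was higher by 0.37 ± 0.12. The medians over all probe sets were 0.02 and -0.04. Only 1 probe set of each of these 2 lists lay within the olfactory receptor range in all 4 groups. The lists were chosen with earlier results of these data known. Whether their shares of calls differ from those of all probe sets was not tested.

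Of 13 processing and crosslinking genes, 3 were higher and 4 lower in tolerant cells (53.8% in all), and 4 and 4 after SK-216 (61.5%). Of all probe sets 44.0% and 43.9% were called in these comparisons, and the difference in shares was not tested. LOX, lysyl oxidase, which crosslinks fibrillar collagen, read 7.48, 6.91 and 7.16 in PC-9 tolerant cells and 14.21, 14.47 and 14.36 in H1975 tolerant cells, -7.16 ± 0.15 (adjusted p = 1.19e-21). PXDN, peroxidasin, which crosslinks collagen IV, read 12.30, 11.97 and 12.18 in PC-9 tolerant cells and 7.66, 7.17 and 7.66 in H1975 tolerant cells, 4.65 ± 0.15 (adjusted p = 3.94e-18). LOX was higher in H1975 and PXDN in PC-9 on every array. LOXL1, another lysyl oxidase, ran opposite to LOX, with 9.35, 10.12 and 10.17 in PC-9 tolerant cells and 5.60, 5.67 and 6.06 in H1975 tolerant cells, 4.10 ± 0.26 (adjusted p = 1.72e-12). After SK-216 the differences were -7.45 ± 0.15 for LOX and 4.79 ± 0.15 for PXDN, and LOXL1 was at least 27.9-fold higher in PC-9.

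Of 10 basement membrane partners, 3 were higher and 0 lower in PC-9 in each condition (30%), and 5 were within the olfactory receptor range throughout. That share lay under the 44.0% and 43.9% of all probe sets called in the 2 conditions, of which 21.3% and 21.6% were higher. NTN4, a netrin that binds laminin, was higher by 3.81 ± 0.12, the heparan sulphate proteoglycan HSPG2 (perlecan) by 1.53 ± 0.17 and AGRN (agrin) by 0.47 ± 0.19 (adjusted p = 0.047) in tolerant cells. The AGRN call in tolerant cells was lost under 13 of 20 alternatives, among them no variance trend, centring and array weights (adjusted p up to 0.14), while that after SK-216 was lost under none. Of 12 receptors, 5 were higher and 2 lower in tolerant cells and 6 and 1 after SK-216 (58.3% each time, against 44.0% and 43.9% of all probe sets). Whether these shares differ was not tested. The collagen receptor kinase DDR1 was higher in PC-9 by 3.00 ± 0.11 while DDR2 differed by -2.74 ± 0.20 in tolerant cells, with 13.16 ± 0.02 in PC-9 and 10.15 ± 0.09 in H1975 for DDR1 and 5.13 ± 0.10 in PC-9 and 7.87 ± 0.25 in H1975 for DDR2 (SD, n = 3). Of 18 degradation genes, 3 were higher and 4 lower in tolerant cells (38.9%), and 3 and 6 after SK-216 (50.0%), near the shares of all probe sets. MMP14, a membrane-bound collagenase, differed by -2.70 ± 0.12, and TIMP3, an inhibitor of such enzymes held in the matrix, was higher by 6.18 ± 0.29 in tolerant cells.

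**Figure D4:**
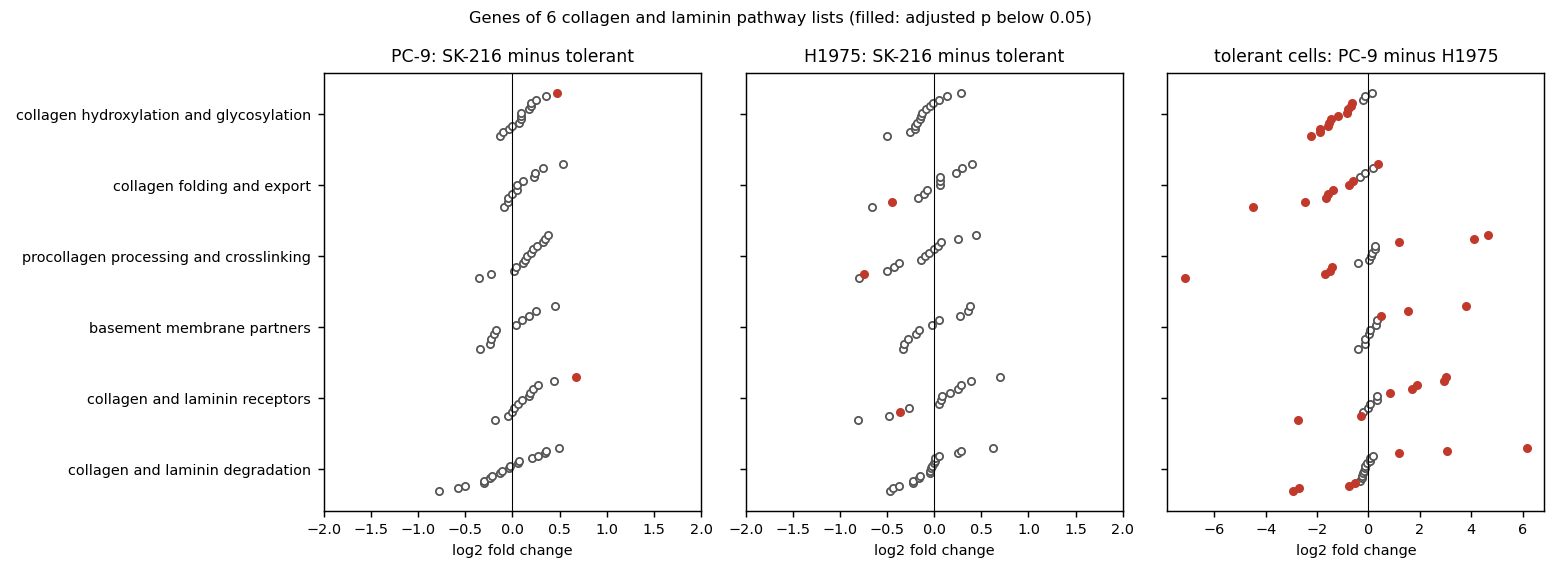
Log2 fold change (x axis) of each measured gene of the 6 lists (rows) for SK-216 in PC-9, SK-216 in H1975 and PC-9 minus H1975 in tolerant cells; each point is 1 probe set, filled where its adjusted p is below 0.05. Few points are filled for SK-216, and 11 of 14 hydroxylation and glycosylation genes are filled and left of 0 between the lines, with P4HB (0.14, open) right of it.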

How the data were processed

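RNA of the 12 arrays was measured on a 1-colour whole-transcript array from 250 ng of total RNA, per the labels' protocols. The authors deposited log2 values, 1 per probe set and array. The tool was Transcriptome Analysis Console, per the submitters' processing notes; version, summarisation, normalization and build were not given in the sources used here. Values spanned 2.19 to 18.61, array medians lay at 6.56 to 6.62, and they were used without rescaling. With no read depth on arrays, precision is limited by the 3 arrays per group.

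All 21448 probe sets were fitted with the 4 groups as means by limma 3.58.1 (R 4.3.3), using eBayes with a variance trend; there were 8 residual and, in the median, 15 prior degrees of freedom. Two-sided p-values were Benjamini-Hochberg adjusted across every probe set, and 0.05 was the threshold for a call. Errors are standard errors of the fit unless an SD is named, and the fitting steps were tested on simulated data. There, planted log2 changes of 0.5 were called in 29.9% of cases for SK-216 in H1975 and 34.8% in PC-9. Those of 1 were called in 82.6% and 83.3%. Changes near 0.5 were thus mostly missed, so a missing call does not show that a change is absent. A fold against a group at or under the olfactory receptor 95th percentile was computed with each such array at the higher of its own value and that percentile, and written "at least". Since no label ties the replicates to independent cultures, the p-values cover the spread of these 12 arrays only, and that spread may be technical.

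Symbols came from the platform annotation: 17709 probe sets had 1 symbol, 0 had several and 3739 were unnamed here. All 49 chains had the same current symbol in the RefSeq gene table, and 36 of 49 were in the promoter table. The members, classes and lists were chosen with earlier results of these data known. Named were all chains called for SK-216 or for the difference between lines, the 10 largest called differences between lines per direction, the chains of collagen I, IV and VI and the main laminins, and in the lists the called gene with the smallest adjusted p per direction (up to 3 for SK-216). Other genes named, among them HSPG2, AGRN and the remaining chains and markers, were chosen after their values were seen. Alternatives were a fit with no trend, a robust fit, separate fits per line, the replicate number as a block, array weights, quantile normalization, centring on array medians, a filter on the dimmest 30% of probe sets, a threshold of 0.01 and leaving out each array.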

Additional observations from a re-analysis of the deposited data

Results flagged for a closer look

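The change of COL8A1 with SK-216 differed between the lines by the test of the difference itself: the change in PC-9 minus that in H1975 was 1.34 ± 0.21 on the log2 scale (limma adjusted p = 0.000667), with 0.37 ± 0.15 in PC-9 and -0.97 ± 0.15 in H1975. All 3 H1975 SK-216 arrays lay below all 3 H1975 tolerant arrays, while the PC-9 groups overlapped. The difference kept its call under all 20 alternatives run, with an adjusted p of at most 0.0159.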

How the results depend on the processing

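No called change of a chain, or of a list gene with a call, changed sign under any alternative run. Of 75 named chain results without a call, 22 changed sign under at least 1, none with a main log2 change over 0.15 in size; COL1A1 in PC-9 (0.01) ran from -0.21 to 0.19. Fits other than those that leave out an array gave 3 calls among the chains for SK-216 in H1975 each time, and COL8A1 kept its call in all 21 alternatives (adjusted p up to 0.00517). Leaving out 1 array gave 2 to 4 calls in H1975, and 0 to 1 in PC-9, the 1 being COL9A3 without the second PC-9 tolerant array. Over all alternatives, calls between the lines ran from 12 to 15 in tolerant cells and from 11 to 13 after SK-216. With the replicate number as a block the chain calls were 0 for SK-216 in PC-9, 3 in H1975, 1 for the difference, 14 between the lines in tolerant cells and 12 after SK-216, the same counts as without it. Deviations from the group means of same-numbered arrays correlated at r of 0.0295, 0.0203 and 0.0152 in PC-9 and 0.00731, -0.0912 and -0.0852 in H1975. Those of differently numbered arrays ran from -0.0374 to 0.0186 in PC-9 and from -0.00925 to 0.0941 in H1975. Deviations in a group of 3 are bound to cancel, so the values within a line depend on each other. Whether same-numbered arrays were paired was not tested. The block ended the calls of P4HA1 (adjusted p = 0.0992) and ITGA2 (0.12) in PC-9. Groups of 3 arrays limit all p-values, and signals within the olfactory receptor range bound what can be said of 24 of the 49 chains.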
